A study of Homo sapiens with 6 samples.

Results

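The SLC25 family comprises the mitochondrial carriers, related proteins that move metabolites, nucleotides, cofactors and ions across the inner mitochondrial membrane. Its members were taken from a deposited table of transcript levels by name, as every symbol made of SLC25A and a number, together with the uncoupling proteins UCP2 and UCP3. Of 18806 symbols in the table, 49 matched, and the 38 that reached 1 TPM (a share of each library's transcripts, corrected for transcript length and scaled to a fixed total) in at least 2 libraries were kept. The rule read no difference between groups. The kept member nearest the limit was SLC25A52, with its highest library at 1.33 TPM and only 2 libraries at 1 TPM or more. Nearest below it were SLC25A34 and SLC25A45, with highest libraries at 0.82 and 0.75 TPM. SLC25A21, SLC25A31 and SLC25A48 were listed at 0 in every library, and the 11 members below the limit are not described further. No kept member passed through a single group alone.

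RNA came from Mono-mac-6, a cell line of human acute myeloid leukemia (AML). It has features of monocytes, and its labels give the MLL-AF9 fusion gene. All groups derived from 1 clone expressing Cas9, the nuclease that cuts DNA where a guide RNA directs it, and all were transduced by lentivirus and kept in blasticidin (10 μg/ml) and hygromycin B (200 μg/ml) for 1 to 2 weeks. The groups were sgNS, which received a control guide, and a pair with guides against DDX6, sgDDX6.1 and sgDDX6.2. DDX6 is an RNA helicase of processing bodies with roles in mRNA decay and translational repression. Each group had 2 libraries of poly(A)+ RNA. The labels place harvest at day 8 after infection, which a selection of 2 weeks would not allow, so the day is uncertain. Nothing in the labels ties replicates to cultures of their own, so p-values measure the spread between these libraries, which may be technical. The title of the series concerns metabolic plasticity and drug resistance in AML, and the comparison asks which carriers change when DDX6 is targeted.

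Carriers of this family share a fold built from repeated pairs of membrane-spanning helices, and most exchange a substrate of the matrix for one of the cytosol. The ADP/ATP carriers and the phosphate carrier supply ATP synthase, the citrate, dicarboxylate and oxoglutarate carriers connect the tricarboxylic acid cycle with cytosolic metabolism, and the aspartate/glutamate carriers form part of the malate-aspartate shuttle. Mitoferrins bring iron in for heme and iron-sulfur clusters, and uncoupling proteins are named for the founding member that lets protons leak back into the matrix.

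Closely related carriers set a limit on how a short read can be assigned. Of the pairs whose sequences were compared, the most alike were SLC25A5 and SLC25A6, which carry the bulk of the ADP/ATP carrier transcripts here. Not every pair of the family was compared, and SLC25A52 was in none of them. Their coding sequences (GENCODE 29) were 78.7% identical over 894 aligned bases, and the longest exact run their transcripts shared was 29 bases. The most alike in-frame stretch of 90 bases, coding positions 46 to 135 in both, is shown to make this visible, with the 10 differing bases in capitals.
SLC25A5: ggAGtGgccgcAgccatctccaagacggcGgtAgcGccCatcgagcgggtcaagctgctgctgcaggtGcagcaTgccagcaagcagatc
SLC25A6: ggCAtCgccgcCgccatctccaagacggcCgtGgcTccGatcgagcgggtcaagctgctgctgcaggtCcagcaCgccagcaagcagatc
Even there the pair differed at several positions within the length of a usual read. The other pairs compared below were less alike, from 72.3% identical (SLC25A12 and SLC25A13) to 53.5% (SLC25A15 and SLC25A29).

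Promoter sequence is shown for 3 members whose transcripts moved far in this study, SLC25A1 and SLC25A20, which rose, and SLC25A36, whose fall was second to that of SLC25A37 and whose promoter holds a motif searched for. Each sequence runs 5′ to 3′ on the gene's strand, lies before both the RefSeq and the GENCODE start (RefSeq promoters, GRCh38.p14), and has motif matches in capitals. Their positions are chr22:19178831-19178986 (minus strand) for SLC25A1, chr3:48898994-48899132 (minus) for SLC25A20 and chr3:140941586-140941829 (plus) for SLC25A36.
SLC25A1: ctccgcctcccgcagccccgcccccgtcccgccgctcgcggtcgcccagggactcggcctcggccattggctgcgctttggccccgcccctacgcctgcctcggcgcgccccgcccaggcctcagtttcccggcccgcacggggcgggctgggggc
SLC25A20: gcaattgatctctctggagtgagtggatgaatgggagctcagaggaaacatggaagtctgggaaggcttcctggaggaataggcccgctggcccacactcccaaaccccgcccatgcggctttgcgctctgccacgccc
SLC25A36: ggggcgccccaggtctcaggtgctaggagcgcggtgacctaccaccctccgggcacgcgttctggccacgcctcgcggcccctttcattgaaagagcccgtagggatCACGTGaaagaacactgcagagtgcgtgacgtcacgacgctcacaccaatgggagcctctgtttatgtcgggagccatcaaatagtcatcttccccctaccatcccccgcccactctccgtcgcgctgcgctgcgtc
The first of these was 81.4% G or C, against 59.7% for SLC25A20 and 63.1% for SLC25A36. In that order the sequences were 156, 139 and 244 bases long, with 94, 111 and 6 bases next to the RefSeq start left out. The shares thus cover unlike distances from the start. Over the whole window of 250 bases before to 50 after the start, on both strands, 3 motifs were sought in the 42 promoters listed for 32 of the 38 members. CACGTG, the E-box bound by MYC and related factors, stood in 7 of them, those of SLC25A13, SLC25A22, SLC25A26, SLC25A33, SLC25A36, SLC25A38 and SLC25A46, and in 7.26% of all 35116 promoters. In SLC25A36 it began 143 bases before the start. TGATGNAA, the core of the C/EBP-ATF element bound by ATF4, stood in 1 member promoter, that of SLC25A11, and in 3.62% of all promoters. The core of the NRF1 site (GCGCA, any base, then GCGC) stood in 3, those of SLC25A3, SLC25A11 and SLC25A52, and in 5.78% of all. These matches are descriptions of letters.

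DDX6 itself was measured at 102 and 99.5 TPM with sgNS, at 54.4 and 52.0 TPM with sgDDX6.1 and at 52.3 and 53.5 TPM with sgDDX6.2. Its transcript fell by 0.91 on the log2(TPM + 1) scale (SE 0.04, limma adjusted p = 4.61e-09), and all 4 libraries with a DDX6 guide lay below both controls. Myeloid transcripts fitted the label in part: LYZ stood between 9531 and 14945 TPM and CD33 between 47.8 and 62.0 TPM, while CD14 reached at most 1.36 TPM. Most of the summed level of 10 monocytic and myeloid markers was LYZ. The sum was 10167 to 10655 TPM with sgNS, 14556 to 15133 TPM with sgDDX6.1 and 15350 to 15792 TPM with sgDDX6.2. Over both guides, LYZ, CD33, CSF1R, CD68, SPI1 and CD4 were called higher and MPO, FCGR1A, ITGAM and CD14 lower. These were 6 and 4 of the 10, while 33.8% of all genes tested were called higher and 32.9% lower. Of 8 erythroid markers, 4 (HBB, HBG1 and HBG2 among them) were listed at 0 in every library and their sum was 0.99 to 1.74 TPM. Of 6 lymphoid markers, 4 (CD3D, CD3E, CD3G and MS4A1) were listed at 0 throughout. The 7 epithelial and fibroblast markers summed to 21.01 to 21.23 TPM with sgNS, 11.4 to 12.2 TPM with sgDDX6.1 and 17.4 to 19.6 TPM with sgDDX6.2, nearly all of it KRT18, with CDH1 at 0 throughout. The part of these marker shifts in the carrier results was not tested. In bulk RNA, fewer cells of a type and less RNA per cell cannot be told apart.

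The summed level of the family moved less than many of its members did. All 49 members together summed to 2503 and 2580 TPM with sgNS, to 2707 and 2731 TPM with sgDDX6.1 and to 2516 and 2547 TPM with sgDDX6.2, between 0.25% and 0.273% of each library. The sgDDX6.1 libraries were the highest, and the sgDDX6.2 libraries lay within the range of the controls. Over both guides against sgNS, 24 of the 38 kept members were called at an adjusted p under 0.05, 14 higher and 10 lower. This is 63.2% of members, and 66.7% of all 11151 genes tested were called in the same comparison (33.8% higher and 32.9% lower), so the share of carriers called was no larger than the background. The members' median log2 fold change was 0.06, that of all genes was 0.0008, and the median size without sign was 0.20 for members and 0.23 for all genes. Between replicates the median over members had an SD of 0.051 on the log2 scale. Counting only calls with a log2 fold change of at least 0.5 in size gave 8 members (21.1%) and 17.4% of all genes. Among these 8 were SLC25A10, SLC25A1, SLC25A20 and SLC25A44, which rose, and SLC25A37, SLC25A36 and SLC25A6, which fell. In 24 members the 4 DDX6-guide libraries were all above or all below the controls (13 above, 11 below), and so they were in 63.4% of all genes.

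**Figure D1:**
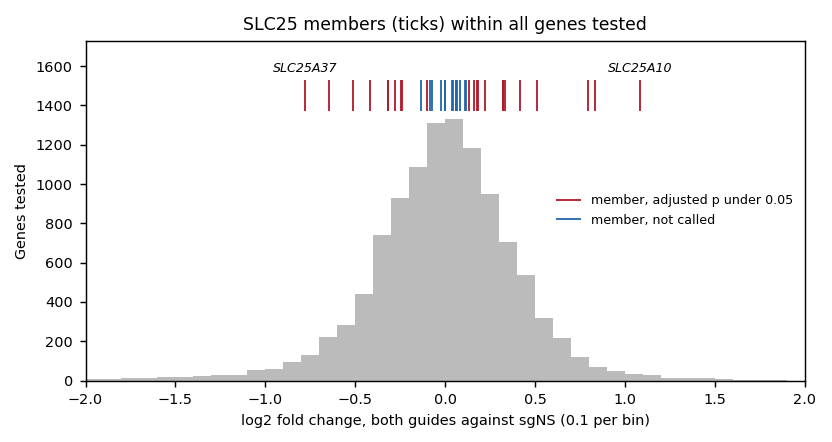
Histogram of log2 fold changes (both guides against sgNS, in bins of 0.1) for the genes tested, with a tick for each of 37 SLC25 members, red where the adjusted p was under 0.05 and blue where it was not; 60 genes beyond 2 in size are not drawn. The members spread over the body of the distribution, from SLC25A37 at -0.78 to SLC25A10 at 1.08.

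Counts by role, here and below, stand beside 33.8% of all genes tested called higher and 32.9% called lower. Role groups held 3 to 9 tested members and were not tested as sets. Among carriers of carboxylates and acylcarnitines, 3 of 4 tested members rose and 0 fell, with a median log2 fold change of 0.81. Their summed level was 145 and 158 TPM with sgNS, 243 and 251 TPM with sgDDX6.1 and 244 and 247 TPM with sgDDX6.2. SLC25A10, the dicarboxylate carrier that exchanges malate or succinate for phosphate, was at 27.9 and 32.5 TPM with sgNS, at 71.7 and 73.9 TPM with sgDDX6.1 and at 56.6 and 58.9 TPM with sgDDX6.2. All 4 libraries with a DDX6 guide were above both controls, and its rise of 1.08 (SE 0.06, limma adjusted p = 2.02e-08) was the largest in the family. SLC25A10 shares 1221 exon bases with the coding gene AC139530.2 on the same strand, so its reads may have been divided between them. SLC25A1, the citrate carrier that exports citrate for fatty acid and sterol synthesis, was at 59.4 and 62.5 TPM with sgNS, at 96.1 and 102 TPM with sgDDX6.1 and at 119 and 123 TPM with sgDDX6.2. The 3 groups did not overlap, and the rise over both guides was 0.83 (SE 0.04, limma adjusted p = 1.21e-08) for this gene on chromosome 22 (19175575 to 19178830, minus strand), of which the annotation names 5 pseudogenes. SLC25A20, the carnitine/acylcarnitine carrier that brings long-chain fatty acids to β-oxidation (chromosome 3, 48856931 to 48898993, minus strand), was at 9.11 and 8.24 TPM with sgNS, 16.2 and 15.7 TPM with sgDDX6.1 and 15.9 and 15.2 TPM with sgDDX6.2. The DDX6 guides overlapped each other and lay above the controls, with a rise of 0.79 (SE 0.06, limma adjusted p = 5.72e-07). SLC25A11, the oxoglutarate/malate carrier, was not called over both guides (0.11, SE 0.05, limma adjusted p = 0.0757). It rose with sgDDX6.1 alone, by 0.22.

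**Figure D2:**
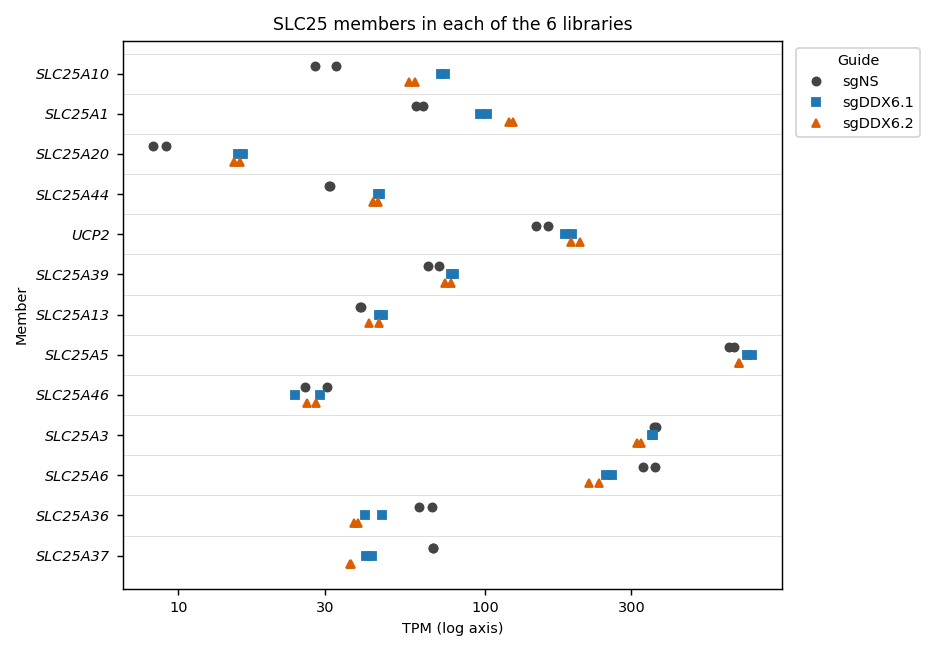
TPM on a log axis in each of the 6 libraries for 13 members described library by library, circles for sgNS, squares for sgDDX6.1 and triangles for sgDDX6.2. SLC25A10, SLC25A1, SLC25A20 and SLC25A44 have all DDX6-guide libraries to the right of both controls, SLC25A6, SLC25A36 and SLC25A37 have them to the left, and the groups of SLC25A46 overlap.

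Over both guides, 1 of 3 tested ADP/ATP carriers was called higher and 2 were called lower. SLC25A5, the form typical of dividing cells and the most abundant carrier of the family, was at 626 and 649 TPM with sgNS, at 712 and 743 TPM with sgDDX6.1 and at 673 and 670 TPM with sgDDX6.2. Every DDX6-guide library was above both controls, and the difference was 0.13 (SE 0.03, limma adjusted p = 0.00256). With sgDDX6.2 alone SLC25A5 was not called (0.08, limma adjusted p = 0.0839). Under quantile normalization of the libraries its difference over both guides turned to -0.028 (adjusted p = 0.381). SLC25A6, a widely expressed form whose gene lies at 1386152 to 1392724 of both X and Y, was at 327 and 357 TPM with sgNS, at 247 and 259 TPM with sgDDX6.1 and at 218 and 235 TPM with sgDDX6.2. The 3 groups did not overlap, and SLC25A6 fell by 0.51 (SE 0.04, limma adjusted p = 1.2e-06). SLC25A4, the muscle and heart form, was low, at 5.25 to 7.16 TPM over all libraries, and fell by 0.24 (adjusted p = 0.011), a call lost under quantile normalization and without replicate 1 of sgNS. The sum of the ADP/ATP carriers was 960 and 1012 TPM with sgNS, 966 and 1009 TPM with sgDDX6.1 and 896 and 910 TPM with sgDDX6.2. Within that sum SLC25A6 made up 34.1% and 35.2% with sgNS and between 24.3% and 25.8% in the DDX6-guide libraries, and SLC25A5 went from 65.2% and 64.1% to between 73.7% and 75.1%. GENCODE names 9 pseudogenes of SLC25A5 and 6 of SLC25A6, to which reads may also be assigned.

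Among phosphate carriers and the calcium-regulated carriers of ATP-magnesium and phosphate, 1 of 4 rose and 2 fell. SLC25A3, which brings in phosphate for ATP synthesis, was at 354 and 361 TPM with sgNS, at 351 and 352 TPM with sgDDX6.1 and at 322 and 312 TPM with sgDDX6.2. The sgDDX6.1 libraries lay just under the controls, the sgDDX6.2 libraries well under both, and the fall over both guides of 0.10 (SE 0.03, limma adjusted p = 0.0148) was not called without replicate 2 of sgNS or of sgDDX6.2. With the GC trend removed the difference was -0.036 (adjusted p = 0.279), and with sgDDX6.1 alone SLC25A3 was not called (-0.02, adjusted p = 0.568). SLC25A24 rose by 0.33 and SLC25A25 fell by 0.24 (limma adjusted p = 0.000683 and 0.00813), the latter no longer called without replicate 2 of sgNS (adjusted p = 0.127). SLC25A23 was not called (0.08, SE 0.04). Together the ADP/ATP carriers and SLC25A3 held 52.5% and 53.2% of the family's TPM with sgNS and between 48.0% and 49.8% in the DDX6-guide libraries.

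Of 9 other carriers of nucleotides and cofactors, 2 rose, 1 fell and 6 were not called. SLC25A36, a pyrimidine nucleotide carrier (chromosome 3, 140941830 to 140980961, plus strand), was at 67.2 and 60.8 TPM with sgNS, at 46.2 and 40.7 TPM with sgDDX6.1 and at 37.4 and 38.5 TPM with sgDDX6.2. Every DDX6-guide library was below both controls, and SLC25A36 fell by 0.64 (SE 0.06, limma adjusted p = 1.83e-06). SLC25A33, the other pyrimidine nucleotide carrier, was not called (0.04, SE 0.04). SLC25A32, linked to folate and FAD transport, was at 47.5 and 41.0 TPM with sgNS, at 57.6 and 54.6 TPM with sgDDX6.1 and at 45.3 and 41.9 TPM with sgDDX6.2, so only sgDDX6.1 stood above the controls. Its call over both guides (0.16, limma adjusted p = 0.0364) was lost without either sgDDX6.1 library, without replicate 1 of sgDDX6.2 or without replicate 2 of sgNS (highest adjusted p = 0.474), and it shares 2547 exon bases with AC012213.5 on the same strand. SLC25A16, SLC25A17, SLC25A26, SLC25A42 and SLC25A52, with roles in coenzyme A, peroxisomal cofactor, S-adenosylmethionine and NAD transport, had differences between -0.0028 and 0.11.

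Amino acid carriers counted 3 higher, 1 lower and 3 not called of 7. SLC25A44, which imports branched-chain amino acids (chromosome 1, 156193932 to 156212796, plus strand), was at 31.1 and 30.9 TPM with sgNS, at 45.4 and 44.7 TPM with sgDDX6.1 and at 43.2 and 44.8 TPM with sgDDX6.2. Both guides gave nearly the same level, well above the controls, and the rise was 0.51 (SE 0.04, limma adjusted p = 1.26e-06). SLC25A13, the aspartate/glutamate carrier also called citrin and the one with the highest mean of this group over all libraries (with either DDX6 guide its range overlapped that of SLC25A44), was at 39.4 and 39.0 TPM with sgNS, at 46.4 and 44.9 TPM with sgDDX6.1 and at 45.1 and 41.8 TPM with sgDDX6.2. It rose by 0.18 (SE 0.05, limma adjusted p = 0.00578) with every DDX6-guide library above the controls. SLC25A12, its close relative aralar, went the other way: from 22.0 and 21.2 TPM with sgNS to 17.7 and 17.8 TPM with sgDDX6.1 and 16.1 and 16.9 TPM with sgDDX6.2, it fell by 0.32 (SE 0.05, limma adjusted p = 0.000273). The glutamate carrier SLC25A22 rose by 0.22 (limma adjusted p = 0.00485). The ornithine carrier SLC25A15, the basic amino acid carrier SLC25A29 and the glycine carrier SLC25A38 were not called over both guides, at 0.07, -0.13 and -0.09.

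Carriers of iron and glutathione were lower in 3 of 4 members. SLC25A37, mitoferrin-1, which imports iron and is best known from developing red cells (chromosome 8, 23528805 to 23575463, plus strand), was at 67.7 and 67.6 TPM with sgNS, at 42.8 and 40.8 TPM with sgDDX6.1 and at 36.5 and 36.2 TPM with sgDDX6.2. The 3 groups were separate, and the fall of 0.78 (SE 0.04, limma adjusted p = 2.77e-08) was the largest in the family. SLC25A28, the widely expressed mitoferrin-2, fell by 0.32 (limma adjusted p = 0.000196). SLC25A40, a glutathione carrier, was at 93.0 and 85.0 TPM with sgNS and between 61.8 and 74.2 TPM in the DDX6-guide libraries, all below the controls, and fell by 0.42 (SE 0.06, limma adjusted p = 5.45e-05). With the trend on transcript GC content removed from each library its difference was -0.20 (adjusted p = 0.000158). Its relative SLC25A39, which also carries glutathione, was at 65.0 and 70.9 TPM with sgNS, at 79.3 and 77.6 TPM with sgDDX6.1 and at 74.1 and 77.2 TPM with sgDDX6.2. It rose by 0.18 (SE 0.05, limma adjusted p = 0.00421), a call lost without replicate 1 of sgNS (adjusted p = 0.0816).

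In the branch of the uncoupling proteins, 2 of 4 members rose and 1 fell. UCP2, the form of immune and many other cells, was at 146 and 160 TPM with sgNS, at 182 and 192 TPM with sgDDX6.1 and at 191 and 204 TPM with sgDDX6.2. All DDX6-guide libraries were above the controls, and the rise was 0.32 (SE 0.05, limma adjusted p = 6.42e-05). UCP3, the skeletal muscle form, stood between 1.61 and 2.80 TPM, and its fall of 0.28 (limma adjusted p = 0.0473) was not called without either sgNS library, replicate 2 of sgDDX6.1 or replicate 1 of sgDDX6.2. UCP3 was called neither with sgDDX6.1 alone (-0.31, limma adjusted p = 0.0597) nor with sgDDX6.2 alone (-0.25, limma adjusted p = 0.116). SLC25A30, a kidney-described relative, was at 13.3 and 14.1 TPM with sgNS, at 20.98 and 19.3 TPM with sgDDX6.1 and at 15.8 and 14.3 TPM with sgDDX6.2. It rose by 0.32 over both guides (limma adjusted p = 0.000832), but with sgDDX6.2 alone the difference of 0.12 was not called (adjusted p = 0.159). SLC25A14 was not called (0.06, SE 0.08). Among less characterised members, SLC25A35 rose by 0.42 (SE 0.11, limma adjusted p = 0.00531) from 3.16 and 3.77 TPM with sgNS to between 4.14 and 6.32 TPM, but was not called with sgDDX6.1 alone (0.30, adjusted p = 0.0595), and 1293 of its exon bases overlap RANGRF on the other strand, while whether the counting used strand is not known here. SLC25A46, an outer membrane protein tied to mitochondrial shape, was at 30.6 and 25.9 TPM with sgNS, at 28.96 and 23.96 TPM with sgDDX6.1 and at 28.0 and 26.3 TPM with sgDDX6.2. These groups overlapped and SLC25A46 was not called (-0.07, SE 0.08, limma adjusted p = 0.452).

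**Figure D3:**
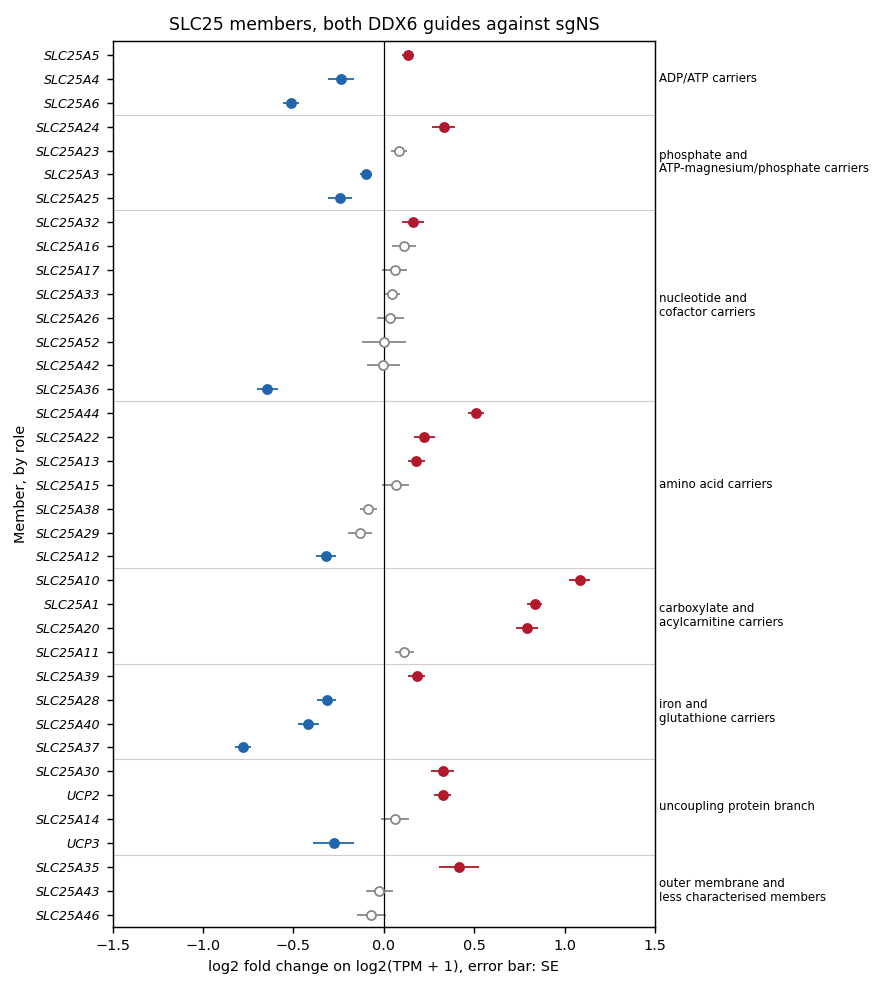
Log2 fold change of each of 37 members over both guides against sgNS, by role, on the log2(TPM + 1) scale with the limma SE as bar; red is higher and blue lower at an adjusted p under 0.05, open circles were not called. SLC25A10, SLC25A1 and SLC25A20 lie to the right within a single role group, while the ADP/ATP, aspartate/glutamate and glutathione carriers have members on both sides.

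The 14 members not called over both guides had differences between -0.13 and 0.11, with SE from 0.04 to 0.12. Taken guide by guide, 22 members were called with sgDDX6.1 (15 higher, 7 lower), against 61.6% of all genes (31.8% higher, 29.7% lower), and 22 with sgDDX6.2 (13 higher, 9 lower), against 64.2% of all genes (31.5% higher, 32.7% lower). Both comparisons use the same sgNS libraries.

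Related carriers were then set against each other within each library, a ratio that a single scaling factor per library leaves as it is. In 6 of 8 pairs the ratios of the DDX6-guide libraries and of the controls did not overlap, while single genes separated these groups in 63.4% of cases and other gene pairs were not counted. The log2 ratio of SLC25A10 to SLC25A11 was -0.79 and -0.74 with sgNS and 0.10 to 0.29 in the DDX6-guide libraries, so the dicarboxylate carrier passed the oxoglutarate carrier in level, a shift of 0.99. SLC25A33 likewise went from below SLC25A36 to above it (-0.61 and -0.44 with sgNS, 0.05 to 0.25 with DDX6 guides), a shift of 0.70. SLC25A39 went from below SLC25A40 to above it, by 0.61, but with the GC trend removed from each library the fold changes of these genes were 0.11 and -0.20 in place of 0.18 and -0.42. The ratio of SLC25A5 to SLC25A6 was 0.94 and 0.86 with sgNS and 1.51 to 1.63 with DDX6 guides, a shift of 0.65, and under quantile normalization the fold changes were -0.028 and -0.56 in place of 0.13 and -0.51. SLC25A12 against SLC25A13 shifted by -0.52, and SLC25A37 against SLC25A28 by -0.47. Each of these 6 had an exact permutation p of 0.133 (two-sided, adjusted p = 0.178 over 8 pairs), which is the smallest that 2 control and 4 DDX6-guide libraries allow, so no pair could pass 0.05. For SLC25A24 against SLC25A23 (0.26, exact p = 0.267) and SLC25A15 against SLC25A29 (0.21, exact p = 0.8) the groups overlapped.

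**Figure D4:**
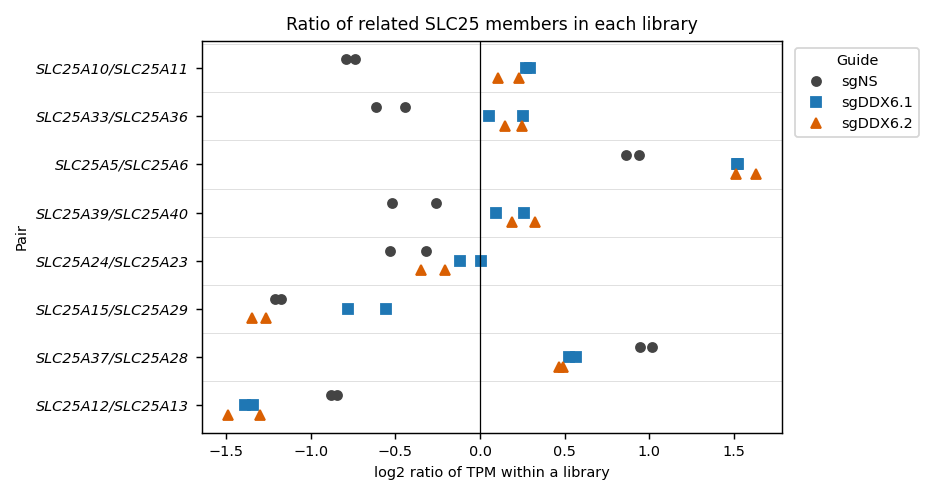
Log2 ratio of TPM of 2 related carriers within each library, for 8 pairs, circles for sgNS, squares for sgDDX6.1 and triangles for sgDDX6.2; 0 is an equal level. In the top 4 pairs the DDX6-guide libraries lie to the right of both controls and in the bottom 2 to the left. SLC25A15/SLC25A29 separates the DDX6 guides from each other, and so do SLC25A24/SLC25A23, SLC25A10/SLC25A11 and SLC25A37/SLC25A28, by less.

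The DDX6 guides also differed from each other in this family, although DDX6 itself was not called between them (-0.01, limma adjusted p = 0.918). With sgDDX6.2 against sgDDX6.1, 17 members were called, 4 higher and 13 lower, 44.7% of members against 35.6% of all genes (17% higher, 18.6% lower). The median difference was -0.10 for members and -0.02 for all genes, where the median over members had an SD of 0.051 between replicates. Fewer members were called without any 1 library of either DDX6 guide, which leaves a comparison of 1 library with 2. How far the count of all genes fell in those runs is not given here. A dependence particular to the carriers was therefore not tested. SLC25A10, SLC25A30 and SLC25A32 were lower with sgDDX6.2, by -0.33, -0.40 and -0.36 on the log2 scale, and SLC25A1 was higher, by 0.29. Of the 17, 5 kept their call under each alternative run, these 4 among them, and 12 lost it under at least 1. Of the members not called over both guides, 6 differed between the guides: SLC25A11, SLC25A15 and SLC25A33 were lower with sgDDX6.2 and SLC25A14, SLC25A23 and SLC25A29 higher. SLC25A15 was at 10.6 and 12.2 TPM with sgNS, at 14.5 and 12.7 TPM with sgDDX6.1 and at 10.5 and 10.4 TPM with sgDDX6.2, above the controls with the first guide and below them with the second.

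**Figure D5:**
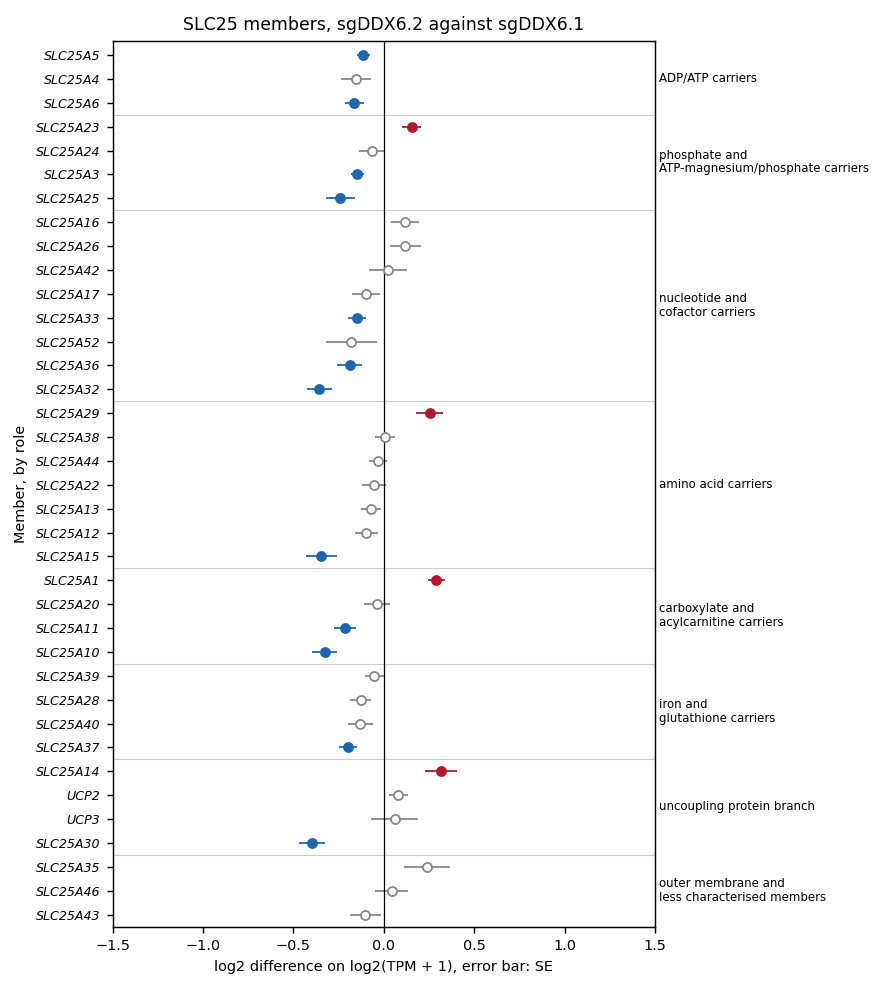
Log2 difference of sgDDX6.2 minus sgDDX6.1 for each of 37 members, by role, with the limma SE as bar; red is higher and blue lower with sgDDX6.2 at an adjusted p under 0.05, open circles were not called. Of the 16 called members drawn, 12 lie to the left, with SLC25A30 furthest at -0.40.

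Of 24 tested transport genes outside the SLC25A names, 14 rose and 4 fell over both guides (median 0.19, against 0.0008 for all genes, of which 33.8% were called higher and 32.9% lower), among them the porin VDAC3 (0.50, limma adjusted p = 1.21e-07), the ABC transporter ABCB10 (0.67, 9.17e-07), the pyruvate carrier subunit MPC2 (0.51, 9.63e-07) and MTCH2 (0.41, 1.48e-06), an outer membrane relative of the carriers. Enzymes that work beside the carriers split evenly, with 7 higher and 7 lower of 15 (median -0.01). CPT1A, which forms the acylcarnitines that SLC25A20 carries, rose from a mean of 29.4 TPM (SD 2.31, n = 2) with sgNS to 75.9 TPM (SD 0.106, n = 2) with sgDDX6.1 and 59.3 TPM (SD 2.25, n = 2) with sgDDX6.2, by 1.16 (limma adjusted p = 3.78e-09). CPT1B of the same list went the other way, at -0.87 (limma adjusted p = 2.1e-06), and CPT2 was not called (-0.01, limma adjusted p = 0.814). ACLY, which splits the citrate exported by SLC25A1, rose by 0.45 (2.66e-07). GOT1, the cytosolic transaminase of the malate-aspartate shuttle, fell by 1.62 (2.37e-10), from a mean of 96.3 TPM (SD 1.499, n = 2) to 32.6 TPM (SD 1.99, n = 2) and 28.9 TPM (SD 1.70, n = 2), while MDH1 of the same shuttle rose by 0.46 (1.03e-07). Of 12 tested regulators of mitochondrial biogenesis, 4 rose and 4 fell (median -0.07), with ESRRA and PPARGC1B higher by 0.54 and 0.35 and TFAM and GABPB1 lower, at -0.41 and -0.30.

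Transcript GC content, which can affect library preparation, ran from 34.2% (SLC25A40) to 66.1% (SLC25A10) among members. Across the 38 members, which share the same 6 libraries, its rank correlation with the fold change over both guides was 0.17, and across 10845 genes it was 0.24. With the GC trend removed from each library, 27 members were called, 17 higher and 10 lower. Of the 10845 genes with a transcript GC value, to which this run was limited, 7790 were called, 4328 higher and 3462 lower. The uncorrected run called 24 members and 7434 of 11151 genes, so both counts rose and leaned upward. The correction put SLC25A22 at 0.15, SLC25A39 at 0.11 and SLC25A32 at 0.29. With a pseudocount of 5, which damps low genes, SLC25A35, SLC25A4 and UCP3 stood at 0.24, -0.15 and -0.13, each still called. With a pseudocount of 0.1 they stood at 0.50, -0.27 and -0.38, and UCP3 was not called (limma adjusted p = 0.0568).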

How the data were processed

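The authors deposited TPM for each gene symbol and library. RSEM 1.2.31 and the build GRCh38 are named in the submitters' processing notes, while aligner, annotation and strand setting were not given in the sources used here. Every library's TPM is scaled to a fixed total, so each value is a share. Sequencing depth is unknown, and intervals or limits based on counts could not be had.

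From these values log2(TPM + 1) was computed, 11151 genes reaching a TPM of 1 in no fewer than 2 libraries were kept, and 3 group means were fitted with limma 3.58.1 in R 4.3.3 (variance trend, 3 residual degrees of freedom). All tests were two-sided; p-values were adjusted over the genes tested by the Benjamini-Hochberg method, with a threshold of 0.05. Fold changes on this scale understate the change of low genes. The procedure was tested on simulated data. Paralog ratios were tested by exact permutation over libraries.

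Members, roles and gene lists were chosen with earlier results of these data known. Values in every library are given for members with an adjusted p under 0.05 and a log2 fold change of at least 0.5 in size. This rule was applied over both guides against sgNS and between the DDX6 guides. The member with the highest mean level in its role was also taken, and SLC25A12, SLC25A15, SLC25A30 and SLC25A32 were added after their values were seen. From other lists the 4 genes with the lowest adjusted p are named, with CPT1B and CPT2 added after their values were seen. All 10 monocytic and myeloid markers are named, and of the other marker lists genes chosen after their values were seen. Coordinates and transcripts are from GENCODE 29 (GRCh38), which may not be the authors' annotation, and 96.78% of symbols had a coding transcript there. SLC25A51 was not analysed here. The counts include 1 member that is not reported here by name. Alternatives were other pseudocounts, filters, normalizations and variance models, a replicate block, and leaving out each library.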

Additional observations from a re-analysis of the deposited data

Results flagged for a closer look

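The DDX6 guides differed from each other, by limma's test of the difference itself, in 17 members, of which 16 are given here. On the log2 scale and as sgDDX6.2 minus sgDDX6.1, the lower members were SLC25A30 (-0.40), SLC25A32 (-0.36), SLC25A15 (-0.35), SLC25A10 (-0.33), SLC25A25 (-0.24), SLC25A11 (-0.21), SLC25A37 (-0.20), SLC25A36 (-0.19), SLC25A6 (-0.16), SLC25A3 (-0.15), SLC25A33 (-0.15) and SLC25A5 (-0.12). The higher members were SLC25A14 (0.32), SLC25A1 (0.29), SLC25A29 (0.25) and SLC25A23 (0.15). For SLC25A37, SLC25A36, SLC25A6 and SLC25A1, both guides moved the gene the same way against sgNS and sgDDX6.2 moved it further. Of these 4, SLC25A1 kept the call between guides under each alternative run, and it was lost under 8 alternatives for SLC25A36, 6 for SLC25A6 and 3 for SLC25A37.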

How the results depend on the processing

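Of the 24 calls over both guides, 17 kept direction and call under every alternative that kept them in the test, and SLC25A3, SLC25A4, SLC25A5, SLC25A25, SLC25A32, SLC25A39 and UCP3 lost theirs under at least 1. Under quantile normalization SLC25A5 reversed, to -0.028 (limma adjusted p = 0.381). Leaving out each library in turn, the number of members called was 21 to 23 over both guides, 19 to 23 with sgDDX6.1 and 16 to 24 with sgDDX6.2. For sgDDX6.2 against sgDDX6.1 it was 7 to 17, and it was 10 with no filter on low values and 10 with no variance trend. With GC trend removed, an alternative chosen after the data were seen, 27 members were called over both guides. So were 7790 of the 10845 genes with a transcript GC value. Other scalings moved the median fold change of all genes by less than that correction, which put it at 0.04.

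The labels tie same-numbered replicates by number only, and whether they were handled together is not known here. Replicate differences correlated at 0.26 between sgNS and sgDDX6.1, 0.10 between sgNS and sgDDX6.2 and 0.04 between the DDX6 guides. With the replicate block 26 members and 7859 of all genes were called over both guides, against 24 and 7434 without it. Members called with the block were 25 with sgDDX6.1, 23 with sgDDX6.2 and 18 between the guides. For these single comparisons the block's counts of all genes are not given here. Depth is unknown, so sampling error of low members such as SLC25A52 and UCP3 could not be separated from other spread, and 2 libraries a group leave few degrees of freedom. Fitting only the groups compared cannot change the comparison over both guides, which uses all of them.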
